A study of Homo sapiens with 5 samples.

Results

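The NF-kappaB subunits and inhibitors are 10 genes that were picked by symbol from the 27189 genes listed for each library. All 10 passed the filter of 1 TPM in at least 1 library, as did 21163 genes in all. They encode the subunits RELA, RELB, NFKB1 and NFKB2, the I-kappaB inhibitors NFKBIA, NFKBIB and NFKBIE, the kinase subunits IKBKB and IKBKG, and the deubiquitinase TNFAIP3. HT1080, a human fibrosarcoma cell line, was kept for 24 h in type I collagen of 2 mg per ml and profiled by RNA-seq with 1 library for each of 5 conditions. LD cells were seeded at 10 cells per cubic mm with no cytokine. The IL-6 and IL-8 cells had the same density and received that recombinant cytokine alone. RM cells, at this density too, received a 5 to 2 mixture of both. HD cells were seeded at 50 cells per cubic mm with no cytokine. All libraries come from a single cell line and one sequencing experiment. Without replicates no test of the conditions was possible. The cytokine doses are not given in the sources used here. In such bulk libraries, fewer cells that express a gene and less RNA per cell cannot be told apart.

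NF-kappaB is a family of dimeric transcription factors that rests in the cytoplasm, bound to I-kappaB proteins that mask its nuclear import signals. In the canonical pathway, the kinase IKBKB and its scaffold IKBKG mark the I-kappaB proteins for destruction, and dimers such as RELA with the p50 product of NFKB1 enter the nucleus. In the non-canonical pathway, the kinase MAP3K14 triggers the processing of the NFKB2 precursor p100 to p52, which pairs with RELB. Several target genes feed back on the pathway, among them NFKBIA and TNFAIP3, and NF-kappaB is a well known activator of the genes for IL-6 and IL-8.

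The promoters of members that hold a match to the kappaB consensus, the sequence that these dimers bind, are shown because NFKBIA, TNFAIP3, NFKB1 and NFKB2 are classic targets of the pathway they regulate. The sequences are from RefSeq on GRCh38.p14. Both strands of the 250 bases before each annotated start were searched, and 7 of the 10 members had an entry with 15 starts between them. At least 1 start held a match in 5 of these 7 genes, against 11.8% of the 27305 genes in the table, and 6 of the 15 windows held one, against 9.96% of all windows. Each line gives the 120 bases before 1 start of the gene with a match, 5′ to 3′ on the strand of the gene, with the matches in capitals. In NFKB2 and NFKBIB, a pair of matches on opposite strands overlaps in 1 capital run.

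NFKBIA, chr14:35404750-35404869, minus strand: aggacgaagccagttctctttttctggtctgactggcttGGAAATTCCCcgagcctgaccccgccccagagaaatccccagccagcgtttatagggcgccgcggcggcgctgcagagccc
TNFAIP3, chr6:137867139-137867258, plus strand: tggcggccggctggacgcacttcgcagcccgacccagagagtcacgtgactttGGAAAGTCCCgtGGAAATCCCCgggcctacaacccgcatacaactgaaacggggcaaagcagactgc
NFKB1, chr4:102501239-102501358, plus strand: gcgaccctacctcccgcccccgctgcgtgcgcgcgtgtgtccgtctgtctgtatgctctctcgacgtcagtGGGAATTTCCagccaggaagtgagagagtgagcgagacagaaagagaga
NFKB2, chr10:102394458-102394577, plus strand: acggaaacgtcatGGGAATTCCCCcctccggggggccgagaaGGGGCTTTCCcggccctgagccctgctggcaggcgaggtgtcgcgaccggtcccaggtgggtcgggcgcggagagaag
NFKBIB, chr19:38899849-38899968, plus strand: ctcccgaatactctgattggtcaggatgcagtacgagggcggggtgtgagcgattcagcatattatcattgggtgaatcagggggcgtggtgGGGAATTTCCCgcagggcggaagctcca

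The match begins 81 bases before the start in NFKBIA and 49 in NFKB1, and the first of 2 in TNFAIP3 begins at 67. RELA and IKBKG had no match in any window. A match is a description of the letters and was not tested for binding. NFKBIB had a start with 2 matches and another with 0. Which start these cells use was not tested, and the matches were not set against the levels of the genes.

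The libraries held between 926376 reads in HD and 7118545 in LD. The ribosomal entry RNA5-8S5 made up 51.5% of them in HD and 76.9 to 79.6% in the others, so that 449661 reads lay outside it in HD and 1100967 to 1645539 elsewhere. Read shares are therefore given as CPM, counts for each 1000000 reads outside RNA5-8S5. A library floor of 3 reads is 1.82 CPM in LD and 6.67 CPM in HD. Levels are given as TPM, which corrects for transcript length, rescaled to a total of 1000000 in each library. Of the 8 mesenchymal markers fixed for the cell check, 7 were measured, with a summed level of 2408 to 4255 TPM at low density and 543 TPM in HD. The 3 endothelial markers summed to 0.48 to 1.08 TPM at low density and 53.8 TPM in HD, and the 5 epithelial markers to at most 0.92 TPM and 42.3 TPM. KRT5 had no read in any library. One label calls the cells epithelial, and these levels at low density are near 0. Of the 4 haematopoietic markers, CD68 carried nearly all of the 145 to 166 TPM at low density, where HD had 187 TPM, and PTPRC had 36 reads in HD against 0 to 2 elsewhere. The part of this difference in the HD results was not tested.

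RELA, which carries the main transactivation domain of the canonical dimer, had the highest mean level of the 10 genes, 70.2 TPM, although NFKBIA was above it in LD and RM and NFKBIB in IL-8 and HD. Its level was 53.8 TPM in LD, 44.3 TPM in RM, 139 TPM in IL-8, 79.6 TPM in IL-6 and 34.2 TPM in HD. These rest on 188, 145, 352, 186 and 21 reads. The IL-8 library stood above the other four, and its interval of 282 to 349 CPM overlapped none of theirs. RM and LD lay within each other's intervals, at 85.3 to 119 and 98.5 to 132 CPM.

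NFKB1 encodes p105, the precursor of p50. It had 64 reads in LD, 120 in RM, 63 in IL-8, 82 in IL-6 and 5 in HD, for levels of 11, 21.5, 14.7, 20.5 and 5.02 TPM. NFKB2, which encodes p100, had 41 reads in LD, 111 in RM, 33 in IL-8, 90 in IL-6 and 8 in HD, for levels of 9.55, 26.3, 10.3, 30.2 and 11 TPM. Both genes were highest in the pair of libraries that received IL-6. For NFKB2 the intervals of IL-6 (from 65.7 CPM up) and RM (63.7 to 93.2) lay above those of LD (17.9 to 33.8), IL-8 (20.3 to 41.4) and HD (7.68 to 35.1).

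RELB, the partner of p52, was low throughout. It had 26 reads in LD, 25 in RM, 3 in IL-8, 8 in IL-6 and 1 in HD, which gave 8.10, 8.25, 1.29, 3.70 and 1.88 TPM. LD and RM were alike within counting error, and IL-8 and HD were at or under the floor of 3 reads.

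NFKBIA encodes I-kappaB alpha, the inhibitor that is destroyed and then made again when the pathway is switched on. It was the most abundant inhibitor in LD and RM. Its level was 81.6 TPM in LD, 73.2 TPM in RM, 17.1 TPM in IL-8, 34.4 TPM in IL-6 and 8.37 TPM in HD, from 173, 150, 27, 50 and 3 reads. In read share LD and RM were both at 105 CPM, with intervals of 90.0 to 122 and 88.5 to 123. The intervals of IL-6 (33.7 to 59.9), IL-8 (15.9 to 35.1) and HD (1.38 to 19.5) lay wholly below these.

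NFKBIB, which encodes I-kappaB beta, had another order. It had 56 reads in LD, 29 in RM, 156 in IL-8, 46 in IL-6 and 31 in HD. The levels were 22.7, 9.10, 147, 37.3 and 57.2 TPM, highest in IL-8 and lowest in RM. The 2 scales part for this gene, because the number of reads behind 1 TPM, set against the median gene of the same library, varied 2.36-fold over the libraries. For TNFAIP3 this quantity varied 2.35-fold and for IKBKB 1.39-fold, while it varied by at most 1.13-fold for the other members. The exons of NFKBIB also overlap those of SIRT2 on the opposite strand in GENCODE 29, and the counting is not stated to use strand. NFKBIE, which encodes I-kappaB epsilon, had 12, 3, 14, 3 and 1 reads in LD, RM, IL-8, IL-6 and HD, with levels of 0.869 to 5.25 TPM. Its interval in IL-8 (6.83 to 21.0 CPM) lay above that in RM (0.431 to 6.11), and no other pair of low-density libraries was separated.

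IKBKB, the catalytic kinase subunit, had 63 reads in LD, 33 in RM, 15 in IL-8, 37 in IL-6 and 19 in HD. Its level was 14.9 TPM in LD, 7.80 TPM in RM, 4.37 TPM in IL-8, 10.7 TPM in IL-6 and 32.4 TPM in HD. IKBKG, the scaffold known as NEMO, had 53 reads in LD, 13 in RM, 48 in IL-8, 50 in IL-6 and 6 in HD. Its level was 21.2, 4.91, 23.4, 25.5 and 13.2 TPM. The 2 kinase subunits were thus lowest in different libraries, IKBKB in IL-8 and IKBKG in RM. The value of IKBKG is uncertain, since RefSeq lists a pseudogene copy, IKBKGP1, that can share its reads.

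TNFAIP3 encodes A20, which removes ubiquitin chains from signalling proteins upstream of the kinase. It had 3 reads in LD, none in RM, 19 in IL-8, 2 in IL-6 and 4 in HD. In IL-8 its share was 17.0 CPM, with an interval of 10.2 to 26.5. The count of 0 in RM allows a share of up to 2.57 CPM by the exact interval, where the floor of 3 reads is 2.09 CPM. LD and IL-6 had 3 reads or fewer. Beyond counting error only IL-8 was set apart from the other libraries at low density.

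**Figure D1:**
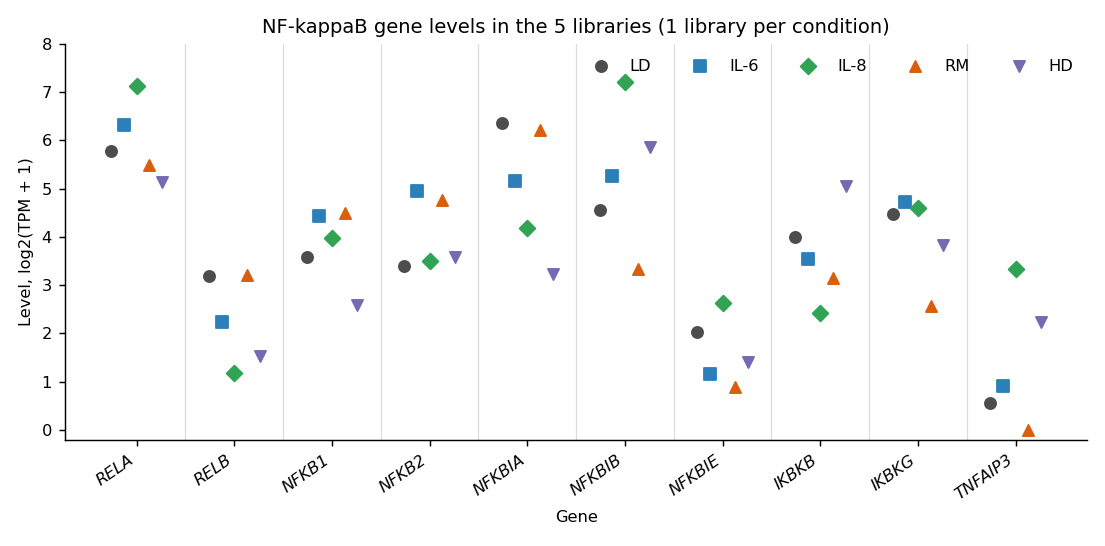
Level of each of the 10 genes on the vertical axis, as log2(TPM + 1), with 1 point for each library. RELA and NFKBIB reach their highest points in IL-8, at 7.13 and 7.21, NFKBIA is at 6.37 in LD and 6.21 in RM but at 4.18 in IL-8, and TNFAIP3 is at 0 in RM.

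The first question of the design is what each cytokine does on its own. Between IL-6 and LD, 2 of the 10 genes differed by at least 1 unit of log2(TPM + 1). NFKB2 was higher by 1.57, where 9.84% of the 21163 genes compared were higher by as much as 1 unit. NFKBIA was lower, with a difference of -1.22, where 7.47% of all genes were lower. In read share, NFKB2 was at 3.28 times LD (95% interval 2.24 to 4.87) and NFKBIA at 0.432 times (0.309 to 0.595). NFKB1 at 1.91 times (1.36 to 2.70) and RELA at 1.48 times (1.2 to 1.82) also had intervals that left out 1, so 4 of 10 did, against 20.8% of all genes. This share depends on depth, and among the 7901 genes with at least 10 reads in both libraries it was 39.7%, close to that of the members. The other 6 could not be told from LD at this depth, RELB being nearest with 0.46 times and an interval of 0.18 to 1.05. The median difference of the 10 genes was 0.31, beside 0.00 over all genes. On the read-share scale 3 genes were lower by 1 unit and 1 higher, in place of 1 and 1.

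With IL-8 alone 6 of the 10 genes were at least 1 unit away from LD, 3 in each direction. RELA (1.35), NFKBIB (2.65) and TNFAIP3 (2.77) were higher, against 7.99% of all genes. RELB (-1.99), NFKBIA (-2.19) and IKBKB (-1.57) were lower, against 16.4% of all genes. The same 6 had read ratios that left out 1, and so did NFKB1 by a small margin, a total of 7 of 10 against 27.4% of all genes and 56.4% of those with at least 10 reads in both libraries. RELA was at 2.75 times LD (2.3 to 3.3) and NFKBIB at 4.09 times (3.00 to 5.66). TNFAIP3 was at 9.30 times, with a wide interval of 2.74 to 49.1 because LD had 3 reads. NFKBIA was at 0.229 times LD (0.147 to 0.345), IKBKB at 0.35 times (0.185 to 0.621) and RELB at 0.169 times (0.0328 to 0.553). The alpha and beta inhibitors thus lay on opposite sides of LD in IL-8. NFKB2, which was high in IL-6, was at 1.18 times LD in IL-8 with an interval of 0.724 to 1.92. The 6 differences kept their sign and stayed at 1 unit or more under all 5 other pseudocounts and scalings tried. The median of the 10 genes was 0.26, beside 0.00 over all genes and -0.27 over the 7086 genes with at least 10 reads in both libraries.

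**Figure D2:**
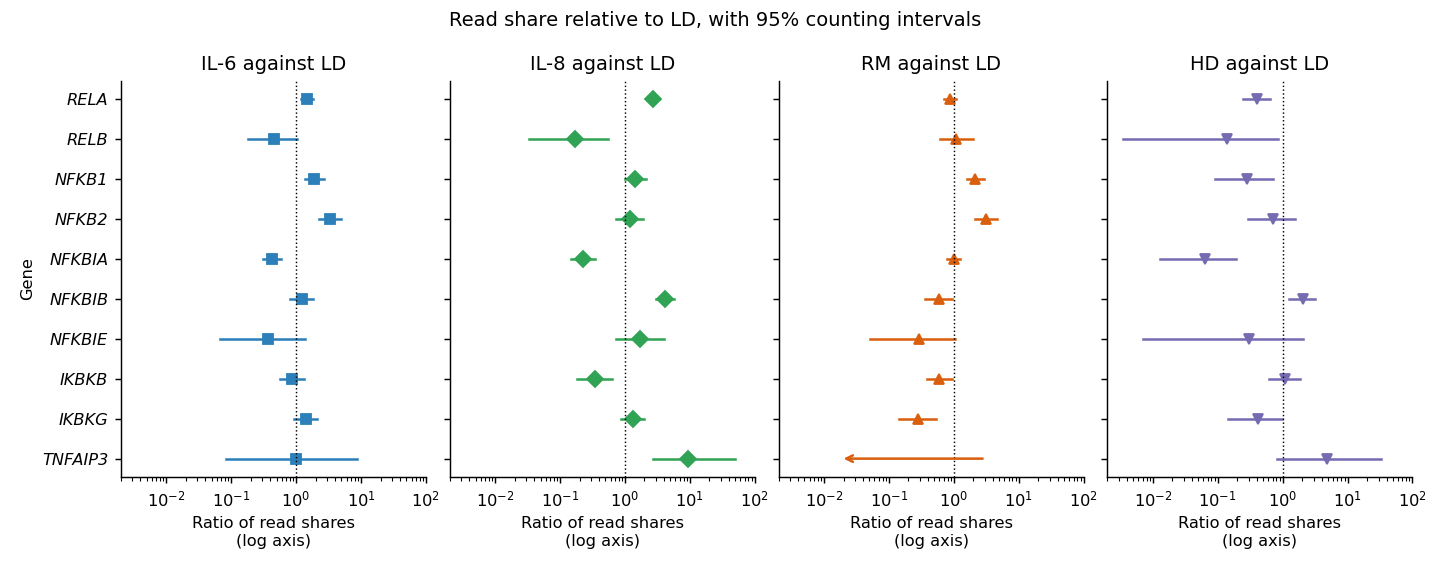
Read share of each gene relative to LD on a log axis, in 1 panel for each other library, with exact 95% intervals that cover counting error only. The arrow for TNFAIP3 in RM marks its count of 0 and starts at the upper bound of 2.78. In IL-8 the points for RELA, NFKBIB and TNFAIP3 lie to the right of 1 and those for RELB, NFKBIA and IKBKB to the left.

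The next question is what the 2 cytokines do together. In RM 4 of the 10 genes were at least 1 unit away from LD. NFKB2 was higher by 1.37, against 6.44% of all genes, and NFKBIB (-1.23), NFKBIE (-1.13) and IKBKG (-1.91) were lower, against 20.4% of all genes. Read ratios left out 1 for 5 of 10, against 31.4% of all genes and 62.3% of those with at least 10 reads in both. These were NFKB2 at 3.11 times LD (2.15 to 4.56), NFKB1 at 2.15 times (1.58 to 2.96), IKBKG at 0.281 times (0.141 to 0.523), NFKBIB at 0.594 times (0.366 to 0.946) and IKBKB at 0.601 times (0.382 to 0.930). The 12 and 3 reads of NFKBIE gave 0.287 times with an interval of 0.0519 to 1.06, so its difference was within counting error. NFKBIA at 0.995 times (0.794 to 1.25), RELA at 0.885 times (0.708 to 1.10) and RELB at 1.10 times (0.611 to 1.99) had intervals that held 1. The split of 1 higher and 3 lower depended on the scaling. It was 2 and 3 on the read-share scale and 2 and 1 with TMM or median-ratio scaling, where NFKB1 passed 1 unit and NFKBIB and NFKBIE fell short. The median of the 10 genes was -0.42, beside 0.00 over all genes and -0.42 over the 7065 genes with at least 10 reads in both.

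Set against IL-6, the RM library was at least 1 unit higher in NFKBIA (1.07), where 6.34% of all genes were higher. It was lower in NFKBIB (-1.92) and IKBKG (-2.17), where 22.7% were lower. In read share NFKBIA was at 2.3 times IL-6 (1.66 to 3.24), RELB at 2.40 times (1.05 to 6.15), RELA at 0.598 times (0.478 to 0.748), NFKBIB at 0.484 times (0.293 to 0.787) and IKBKG at 0.20 times (0.0994 to 0.373). These were the 5 of 10 genes whose intervals left out 1, against 30.2% of all genes and 60.8% of those with at least 10 reads in both. NFKB2 at 0.947 times (0.71 to 1.26) and NFKB1 at 1.12 times (0.841 to 1.51) did not differ from IL-6 beyond counting error on read shares. The differences of NFKB1, NFKB2 and RELA were 0.07, -0.19 and -0.83. They were 0.66, 0.42 and -0.21 with TMM and 0.79, 0.54 and -0.09 with median-ratio scaling. The likeness of the first 2 genes and the difference of RELA thus depended on the scaling. The split was 2 higher and 3 lower on the read-share scale, 2 and 1 with TMM and 2 and 2 with median-ratio scaling. NFKBIB was at -1.01 on read shares and -1.22 with median ratios, and fell short of 1 unit with TMM, at -0.47.

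Against IL-8, 8 of the 10 genes in RM were at least 1 unit away. RELB (2.02), NFKB2 (1.27) and NFKBIA (2.03) were higher, against 9.87% of all genes. RELA (-1.63), NFKBIB (-3.87), NFKBIE (-1.74), IKBKG (-2.05) and TNFAIP3 (-3.33) were lower, against 14.9% of all genes. Read ratios left out 1 for these 8 and for NFKB1, a total of 9 of 10 against 26.6% of all genes and 56.7% of those with at least 10 reads in both. NFKBIA was at 4.34 times IL-8 (2.87 to 6.80), RELA at 0.322 times (0.263 to 0.392) and NFKBIB at 0.145 times (0.0942 to 0.217). For TNFAIP3, with no read in RM and 19 in IL-8, the interval of the ratio reached up to 0.167 times IL-8. Against LD, the differences of NFKBIA were -0.15 in RM, -2.19 in IL-8 and -1.22 in IL-6, and those of RELA were -0.28, 1.35 and 0.56. The 3 values of each gene share the LD library. For both genes RM was closer to LD on this scale than either cytokine alone was. The sign of the RM values depended on the scaling. With TMM and median-ratio scaling NFKBIA in RM was at 0.41 and 0.57, and RELA at 0.24 and 0.44. RM was still the closest to LD, for RELA by a small margin, since IL-6 was at 0.46 and 0.53. For NFKB2 the values in the same order were 1.37, 0.10 and 1.57, with RM beside IL-6.

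The last comparison asks what seeding at 5 times the density does. HD was at least 1 unit above LD in NFKBIB (1.30), IKBKB (1.07) and TNFAIP3 (1.67), where 61.9% of all genes were above it, and below LD in RELB (-1.66) and NFKBIA (-3.14), where 17.9% were below. NFKB1, at -1.0 after rounding, lay just inside the limit. Read ratios left out 1 for 6 of 10 genes, against 62.7% of all genes and 77.2% of those with at least 10 reads in both, and 5 of the 6 were lower in HD. NFKBIA was at 0.0635 times LD (0.013 to 0.189), RELB at 0.141 times (0.00343 to 0.857), NFKB1 at 0.286 times (0.0898 to 0.703), RELA at 0.409 times (0.247 to 0.643) and IKBKG at 0.414 times (0.146 to 0.963). NFKBIB was at 2.03 times LD (1.26 to 3.20). The 19 and 63 reads of IKBKB gave 1.10 times (0.624 to 1.87), and the 4 and 3 reads of TNFAIP3 gave 4.88 times (0.825 to 33.3), so neither difference was beyond counting error. The split of 3 higher and 2 lower depended on the scaling. It was 1 and 6 on the read-share scale, 0 and 6 with TMM and 1 and 5 with median-ratio scaling.

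The median difference from LD to HD was -0.63 for the 10 genes and 1.86 for all genes, over libraries whose depth differed as given above. HD, with the fewest reads, had at least 1 read for 20113 genes, against 13469 to 15080 in the other libraries. The part of these added genes in the shares and medians over all genes was not tested. Over the 4774 genes with at least 10 reads in both libraries the median was 0.83, and only 3 members, RELA, NFKBIB and IKBKB, had that many reads. The sums of the endothelial and of the epithelial markers given above were higher in HD, and that of the mesenchymal markers was lower. VIM carried most of the mesenchymal sum, at 3676 TPM in LD and 413 TPM in HD. THY1 went the other way, at 1.81 TPM in LD and 3.56 TPM in HD. The part of depth and of these markers in the members' differences was not tested. NFKBIA was below LD by at least 1 unit under each of the 5 other pseudocounts and scalings, with differences between -3.79 and -2.70, although its 3 reads in HD are at the floor of that library. RELB, with 1 read in HD, was at -0.93 under a pseudocount of 5.

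**Figure D3:**
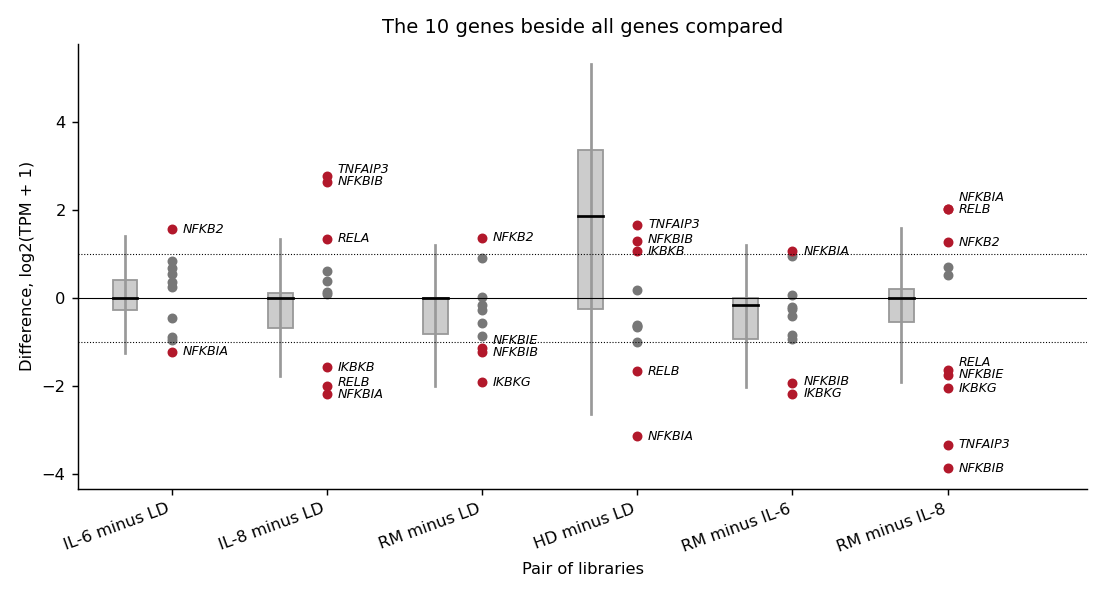
Difference in log2(TPM + 1) of the 10 genes (points, red and named at 1 unit or more) for 6 pairs of libraries, beside all 21163 genes compared (box, quartiles with the median line; whisker, 5th to 95th percentile). Dotted lines mark 1 unit. In the HD pair the box lies mostly above 0, with a median of 1.86, while NFKBIA is at -3.14.

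Ratios of 2 members within the same library do not depend on how libraries are scaled to each other. These pairs were chosen after the values had been seen and are given as a description. For each read of RELA there was 0.92 of a read of NFKBIA in LD (0.744 to 1.14) and 1.03 in RM (0.818 to 1.31). The ratio was 0.0767 in IL-8 (0.0498 to 0.114), 0.269 in IL-6 (0.193 to 0.369) and 0.143 in HD (0.0273 to 0.478). On the length-corrected scale the ratios of the 2 levels were 1.52 in LD, 1.65 in RM, 0.123 in IL-8, 0.432 in IL-6 and 0.245 in HD. On that scale NFKBIA was above RELA in LD and RM and below it in the other 3 libraries.

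The order of NFKBIA and NFKBIB, the alpha and beta inhibitors, differed between libraries. There were 3.09 reads of NFKBIA for each read of NFKBIB in LD (2.27 to 4.25), 5.17 in RM (3.46 to 7.99), 0.173 in IL-8 (0.111 to 0.262), 1.09 in IL-6 (0.714 to 1.66) and 0.0968 in HD (0.0189 to 0.31). NFKB2 per NFKB1 was 0.641 in LD (0.422 to 0.963), 0.925 in RM (0.708 to 1.21), 0.524 in IL-8 (0.333 to 0.81) and 1.10 in IL-6 (0.805 to 1.5), and the 8 and 5 reads of HD left it between 0.462 and 6.22. IKBKG per IKBKB was 0.841 in LD (0.573 to 1.23), 0.394 in RM (0.19 to 0.769), 3.20 in IL-8 (1.76 to 6.15), 1.35 in IL-6 (0.866 to 2.13) and 0.316 in HD (0.103 to 0.822). The IL-8 and RM libraries lay on opposite sides of LD in both the inhibitor ratio and the kinase ratio. In both ratios the interval of IL-8 was apart from that of LD, while the intervals of RM and LD overlapped.

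**Figure D4:**
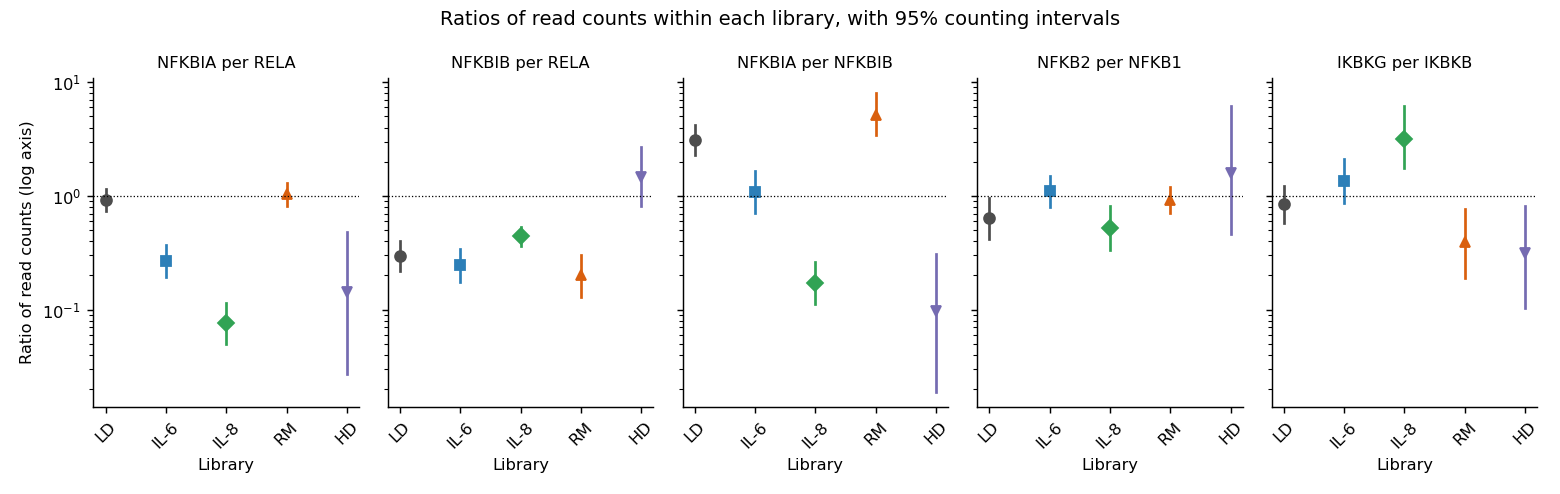
Ratio of the read counts of 2 genes within each library, on a log axis, for 5 pairs of genes, with exact 95% intervals for counting error. NFKBIA per RELA is 0.92 in LD and 1.03 in RM and lies between 0.0767 and 0.269 in the other 3 libraries.

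The rest of the pathway was followed in 5 lists of 105 genes, of which 101 were measured and 91 passed 1 TPM in at least 1 library. The list counts below are to be read against all genes. In HD 61.9% of all genes were at least 1 unit above LD and 17.9% below. In RM the shares were 6.44% and 20.4%, in IL-8 7.99% and 16.4%, and in IL-6 9.84% and 7.47%. Among the other subunits and I-kappaB proteins, REL, the remaining subunit with a transactivation domain, had 7 reads in LD, 3 in RM, none in IL-8, 5 in IL-6 and 9 in HD. NFKBID, a nuclear I-kappaB protein, had 24 reads in IL-8 and 0 to 3 elsewhere, and BCL3, a nuclear partner of p50 and p52, had 18 reads in IL-8 against 3 in LD, a ratio of 8.81 (2.57 to 46.7). NFKBIZ, another nuclear I-kappaB protein, had 10 reads in IL-6 and 2 in LD. Of the 5 genes of this list compared, 2 were at least 1 unit above LD in IL-6, 2 in IL-8, none in RM and 3 in HD, while 1 was below LD in each. The median differences were 0.15, 0.37, -0.40 and 2.04, beside 0.00, 0.00, 0.00 and 1.86 over all genes, and 3 of 5 in HD is near the 61.9% of all genes. NKRF, a repressor of NF-kappaB target genes, had 26 reads in LD and none in HD. NFKBIL1, also in this list, had no read in any library and was not compared.

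For the kinases and upstream adaptors 21 genes were compared. In IL-6, 3 were at least 1 unit above LD and 1 below, in IL-8 4 and 1, in RM 1 and 5, and in HD 8 and 4. The median differences in this order were 0.03, -0.25, -0.35 and 0.36, beside 0.00, 0.00, 0.00 and 1.86 over all genes. The 5 of 21 lower in RM stand beside 20.4% of all genes, and the 8 higher in HD beside 61.9%. IRAK1, the kinase below interleukin-1 and Toll-like receptors, was the most abundant, with 253 TPM in LD, 459 TPM in RM, 355 TPM in IL-8, 236 TPM in IL-6 and 18.8 TPM in HD. MAP3K14, the kinase of the non-canonical pathway, had 38 reads in LD, 132 in RM, 89 in IL-8, 40 in IL-6 and 18 in HD. It was at 3.99 times LD in RM (2.76 to 5.88). In IL-8 it was at 3.44 times LD (2.33 to 5.17), where the RNA of NFKB2 was at 1.18 times. The kinase acts on the processing of the p100 protein, which was not tested. TRAF2, an adaptor of tumour necrosis factor receptors, had 60 reads in IL-6 and 16 in IL-8 against 4 in LD. Its partner TRADD had 44 reads in IL-6 and 30 in IL-8 against 16 in LD and 4 in RM. IKBKE, an I-kappaB kinase relative, had 75 reads in IL-6 and 55 in LD, and CHUK, the other catalytic subunit of the I-kappaB kinase, had at most 7 reads in any library. Beyond counting error TRAF5 was also higher in IL-8, MAP3K7 lower in IL-8 and RM, and RIPK1 and TRADD lower in RM. In HD, BCL10, IRAK4, MYD88, TRAF3, TRAF5 and TRAF6 were higher and IRAK1 and TRADD lower.

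The list of ubiquitin enzymes and negative regulators held 22 genes. Against LD, 1 was at least 1 unit higher and none lower in IL-6, 2 and 5 in IL-8, 2 and 8 in RM and 7 and 10 in HD, with medians of -0.27, -0.45, -0.68 and -0.06, beside 1.86 over all genes in HD and 0.00 in the others. Of all genes 16.4% were lower in IL-8 and 20.4% in RM, and in HD 61.9% were higher and 17.9% lower. UBE2D3, a ubiquitin-conjugating enzyme, was the most abundant over the 5 libraries, with 250 TPM in LD and 25.6 TPM in HD. RBCK1 and SHARPIN, subunits of the linear ubiquitin ligase, had 181 and 62.0 TPM in LD. The third subunit, RNF31, was at 1.99 times LD in RM (1.57 to 2.53). BIRC2, a ligase that keeps MAP3K14 low in resting cells, had 161 reads in LD, 30 in RM, 58 in IL-8, 73 in IL-6 and 3 in HD. It was at 0.214 times LD in RM (0.14 to 0.317). FBXW11 was higher in IL-6 and IL-8, and BIRC2, COMMD1, SKP1, TAX1BP1 and TNIP2 were lower in IL-8. CYLD was higher in RM, and BTRC, CUL1, ITCH, N4BP1, TAX1BP1 and UBE2N were lower. In HD, BTRC, CYLD, FAM105B, FBXW11 and TNIP3 were higher, and COMMD1, RBCK1, SHARPIN, SKP1, TAX1BP1, TNIP1, TNIP2, UBE2D3 and UBE2N were lower.

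Of the 19 receptors and ligands 16 could be compared, and several ligands had no read. TNF, LTA and LTB had no read in any library, and IL1B had 9 reads in LD, 2 in HD and none in the cytokine libraries. The annotation behind the counts is not given, so these zeros do not show that the ligands are absent. TNFRSF12A, the receptor for TWEAK, was at 775 TPM in LD, 1291 TPM in RM, 1474 TPM in IL-8, 584 TPM in IL-6 and 380 TPM in HD. TNFSF12, which encodes TWEAK, had 30 reads in LD, 137 in RM, 9 in IL-8, 18 in IL-6 and 4 in HD. TNFRSF1A, the main receptor for tumour necrosis factor, had 326 reads in LD and 113 in RM, a ratio of 0.398 (0.318 to 0.494), and 351 in IL-8. The lymphotoxin receptor LTBR was at 20.7 to 58.5 TPM. In all, 2 genes were at least 1 unit higher and 1 lower in IL-6, 1 and 2 in IL-8, 2 and 2 in RM and 11 and 1 in HD, with medians of 0.02, 0.00, 0.00 and 2.14. The 11 of 16 and the median in HD stand beside 61.9% and 1.86 over all genes. CD40, IL1R1, IL1RAP and TNFRSF1B were higher in HD, and TNFRSF12A was lower. Of the measured genes in this list, 7 had no read in any library at low density.

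Among the 33 measured target genes, 5 had no read in any library. These were IL8, CXCL2, CXCL3, CXCL10 and CSF2. IL6 had 3 reads in the IL-6 library and 1 in HD. The paper measured IL-6 and IL-8 as protein secreted by HT1080 cells in collagen, and both rose with cell density. A count of 0 at this depth therefore does not show that a gene is silent. The gap between these RNA counts and the secreted protein was not tested. CCL5, a chemokine gene, was at 4.54 to 6.08 TPM at low density and 171 TPM in HD. CCND1, a cyclin under the control of many pathways, was the most abundant, at 2333 to 3012 TPM at low density and 559 TPM in HD, followed by BCL2L1, a survival gene, at 46.9 to 185 TPM. IL32 had 137 reads in LD, 252 in RM, 28 in IL-8, 61 in IL-6 and 6 in HD, so that it was at 0.3 times LD in IL-8 (0.192 to 0.453) and at 2.11 times in RM (1.71 to 2.62). Of 27 targets compared, 3 were at least 1 unit above LD and 1 below in IL-6, 4 and 4 in IL-8, 2 and 2 in RM and 16 and 7 in HD. The medians were 0.21, 0.00, 0.00 and 2.17, beside 0.00, 0.00, 0.00 and 1.86 over all genes. LIF and PTX3 were higher in IL-8 and EFNA1, IL32 and MYC lower, and CFLAR and IL32 were higher in RM and PTX3 lower. In HD, CCL5, CFLAR, EFNA1, ICAM1, IRF1, MYC, TNFRSF9, TRAF1 and XIAP were higher, with 598 reads on CFLAR and 93 on TNFRSF9 against 97 and 4 in LD. BCL2L1, CCND1, CSF1, GADD45B, IL32 and PLAU were lower. These HD counts stand beside the 61.9% of all genes that were higher there.

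Of all genes, 6.34% were at least 1 unit higher and 22.7% lower in RM than in IL-6, and 9.87% and 14.9% against IL-8. Between RM and the single cytokines, MAP3K14 (against IL-6), TNFRSF12A (against IL-6), TNFSF12, CFLAR, IL32, OTUD7B and RNF31 were higher in RM. So were CSF1, EFNA1 and MYC against IL-8. The 2 scales part for RNF31, at 98.2 TPM in RM, 24.8 TPM in IL-6 and 28.5 TPM in IL-8. In read share RM was only 1.58 times IL-6 (1.23 to 2.04) and 1.31 times IL-8 (1.04 to 1.66) for this gene. RIPK1, TRADD, TRAF2, TNFRSF1A, LIF, PTX3, BIRC2, BTRC and N4BP1 were lower in RM than in either. MAP3K7, TAB3, GADD45B, IRF1, CUL1, ITCH, RNF11 and TAX1BP1 were lower than in IL-6, and TRAF5, BCL3, NFKBID and FBXW11 were lower than in IL-8.

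The pattern most like that of RELA, the member with the most reads, was sought among the 988 genes with at least 30 reads in every library, by the Euclidean distance of the differences from LD over the other 4 libraries. RELA itself, with 21 reads in HD, does not reach this minimum, nor does any other member. The nearest were PIEZO1 at a distance of 0.33, MRPL12 at 0.55, TIMM13 at 0.58, TCOF1 at 0.61 and UBAP2L at 0.80. PIEZO1 differed from LD by -0.11 in RM, 1.28 in IL-8, 0.67 in IL-6 and -0.89 in HD. With 4 values each that share the LD library, this is a description of likeness alone.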

How the data were processed

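Whole-transcriptome RNA-seq (50 base single-end reads) was analysed for 5 HT1080 libraries, 1 for each condition, grouped by the sample titles. Per the labels, the authors selected RNA with oligo-dT and amplified the cDNA pool with phi29 polymerase. The submitters' processing notes name CASAVA 1.4, FastQC, Bowtie2 2.3.1, RSEM 1.2.25 and hg19. The authors deposited a whole-number read count for each gene, not normalized, and a TPM value from RSEM. The annotation and any strand setting are not given in the sources used here. Because the cDNA was amplified, reads are not independent molecules, and every interval and floor covers counting error only.

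Each library's TPM was brought to a total of 1000000. Comparisons used log2(TPM + 1), which understates changes of low genes, over 21163 genes that reached 1 TPM somewhere. A difference of at least 1 unit is the limit used, since no replicates allow a test. Ratios of read shares outside RNA5-8S5 have exact Clopper-Pearson 95% intervals, and single counts exact Poisson 95% intervals. The intervals were checked on simulated independent counts, the model from which they are derived. That simulation left out the amplification, so it does not show how the intervals hold for these reads. Besides the 10 members, the 3 most abundant genes of each pathway list were named, with each gene that had at least 10 reads in 1 of the 2 libraries, differed by at least 1 unit and had a ratio interval without 1. CHUK, IL1B, IL6 and the genes with no read in any library fall outside this rule and were named after their values were seen. Members, lists and rules were chosen with earlier results of these data known. The listed genes TAB1, TAB2, SOD2 and TNFAIP2 and 1 marker were not analysed here. FAM105B is an older symbol of OTULIN and IL8 of CXCL8. Alternatives were pseudocounts of 0.1 and 5, read shares, edgeR TMM, DESeq2 median ratios, no filter and a minimum of 10 reads. The TMM values were taken over all reads, RNA5-8S5 included. The pseudocount of 1 therefore shrinks differences of low genes more there than on read shares. Promoters are RefSeq sequences on GRCh38.p14, and no coordinate was combined with the hg19 files. Python 3.11.15, scipy 1.17.1, R 4.3.3, edgeR 4.0.16 and DESeq2 1.42.0 were used.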

Additional observations from a re-analysis of the deposited data

How the results depend on the processing

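Of the 60 differences (10 genes in 6 pairs of libraries), 28 reached 1 unit, and 19 of these did so under all 5 other pseudocounts and scalings. The number of genes at least 1 unit apart between IL-6 and LD was 2, and 4 with a pseudocount of 0.1 or on read shares. For RM and LD it was 4, and 2 with a pseudocount of 5. For HD and LD it was 5, and 2 with a pseudocount of 5 or with at least 10 reads in both libraries, a filter that leaves 3 genes. For RM and IL-6 it was 3, and 5 with a pseudocount of 0.1 or on read shares. For RM and IL-8 it was 8, and 5 with at least 10 reads in both, which leaves 7 genes. The count of 6 for IL-8 and LD stayed between 4 and 6. IKBKB between HD and LD reversed from 1.07 to -0.39 with TMM, and the cause was not tested. The median of all genes from LD to HD, 1.86, was 0.46 with TMM, 1.45 with median-ratio scaling, 1.69 on read shares, 0.77 with no filter and 0.85 to 2.94 with the other pseudocounts. No paired analysis was possible because each condition has 1 library, and for the same reason no library could be left out. In HD, 7 of the 10 genes had fewer than 10 reads in at least 1 of the 2 libraries compared with LD, which limits every statement on them.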
